A study of Homo sapiens with 8 samples.

Results

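Agilent 44k human arrays carry 2513 non-control probes, of 41000 in all, whose target is named by a THC number. A THC (tentative human consensus) is a sequence assembled from overlapping expressed sequence tags (ESTs), without a curated gene model behind it. These probes were taken by the THC prefix of their target name alone and were set beside the 24823 probes for curated RefSeq mRNAs, whose target names begin with NM_. The prefix rule uses no measured value, but the class was chosen with earlier results of these data known. Detection over background, signal, recovery with Ago2 and the difference between sponge and control cells were compared between both classes.

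The RNA came from L1236, an established Hodgkin lymphoma cell line, transduced with a retroviral pMSCV-PIG vector that was either empty (EV) or carried a miR-155 sponge, and sorted for GFP. Total RNA (T) and RNA pulled down with an antibody against Ago2 (IP) were prepared from each of the 2 cell populations. Each of the 4 RNA samples was labelled with Cy3 and with Cy5 and read on 4 arrays, so that every probe has 8 channel values. Every group thus holds 1 RNA sample from 1 sorted population, so no difference between groups was tested, and each ± is the SD over the 2 dyes or the 2 dye orientations (IP in Cy5 with T in Cy3, and the reverse).

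Ago2 is the protein that holds a microRNA and, through pairing with its seed, the transcripts that the microRNA recognises. A sponge is a transcript with repeated binding sites that competes with natural targets for a microRNA. EST assemblies can stand for unannotated ends of known mRNAs, for introns, for noncoding RNA or for repeats, so a THC probe by itself does not say which kind of RNA it reads. Their probe sequences and genome positions were not analysed here. The mature sequence of the microRNA that the sponge binds is shown because its seed is what pairs with targets in Ago2. It is given by RefSeq on GRCh38.p14 at chr21:25573983-25574006, + strand, with the seed (bases 2 to 8) in capitals.
hsa-miR-155-5p: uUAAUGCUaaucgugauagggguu

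Of the listed markers of Hodgkin lymphoma cells, all 8 were called well above background in the 4 T channels, and 4 of 6 genes of the B-cell programme, 2 of 4 T-cell genes and 2 of 4 monocyte and macrophage genes were too. The B-cell markers MS4A1 and CD22, the T-cell receptor chains CD3D and CD3G, and CD68 and LYZ of macrophages were well above background in 0 T channels. Over all probes, 53.2% were well above background in sponge T labelled with Cy5, the lowest of the 8 channels, and the highest was 65.1%. No channel held a saturated spot. The sponge transcript, mature miR-155 and a control precipitation without the Ago2 antibody were not analysed here.

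THC probes were detected less often than NM_ probes in every channel. On average over the 8 channels, 39.8% of THC probes were well above background (the Feature Extraction call), against 71.1% of NM_ probes and 61.6% of all probes. Among THC probes the share was 38.3% and 38.4% in EV T (Cy3, then Cy5), 43.8% and 41.7% in EV IP, 40.2% and 30.8% in sponge T, and 41.4% and 43.7% in sponge IP. The Cy5 labelling of sponge T was thus the lowest channel for THC probes as for the array as a whole, and the other 7 channels lay within 38.3% to 43.8%. NM_ probes ranged from 62.8% in that same channel to 74.4%, and in each of the 8 channels the THC share was below the NM_ share.

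The classes differed in the probes never detected and in those detected throughout. Of the THC probes, 1231 (49.0%) were well above background in none of the 8 channels, against 21.6% of NM_ probes and 29.9% of all probes. At the other end, 726 THC probes (28.9%) were well above background in all 8, against 61.5% of NM_ probes, and the remaining 556 (22.1%) were called in some channels. Probes for Ensembl transcripts (ENST, 1683 probes) and probes named only by their own identifier (2725 probes) lay between THC and NM_ probes, at 58.7% and 47.2% on average. Under the more lenient flag for a positive and significant signal the shares were 61.6% for THC and 83.6% for NM_ probes. The median local background of THC probes was 21 in EV T with Cy3, where it was 21.35 for NM_ probes, so the spots of both classes sat on about the same background.

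THC and NM_ probes were spread unevenly over the 3 series of probe identifiers on the array, A_23, A_24 and A_32. Of the THC probes, 1643 (65.4%) carry the prefix A_32, 751 (29.9%) A_24 and 119 (4.74%) A_23, whereas 65.8% of NM_ probes carry A_23. Within A_24, 37.4% of THC and 71.4% of NM_ probes were well above background on average, and within A_32 the shares were 39.0% and 69.7%. Among the 119 THC probes of A_23 the share was 65.5%, near the 71.2% of NM_ probes. The lower detection of THC probes was therefore found within the A_24 and A_32 series at about the size seen over all probes, and was small in A_23.

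Some THC probes were detected in only one of the 2 fractions. In EV cells 67 THC probes were well above background in both IP channels and in neither T channel, which is 5.59% of the 1199 THC probes called in any of the 4 EV channels and compares with 3.06% of NM_ probes and 3.66% of all probes. In sponge cells there were 79 such THC probes, 6.58% of 1200, against 3.52% of NM_ probes and 4.26% of all probes. Counted over every probe, called or not, the shares lay closer together. They were 2.67% of THC, 2.34% of NM_ and 2.47% of all probes in EV cells, and 3.14%, 2.70% and 2.90% in sponge cells. The reverse, both T channels and no IP channel, was met by 12 THC probes of EV cells and by 4 of sponge cells. Of the probes called in any channel this is 1.00% in EV cells (0.549% over all classes) and 0.333% in sponge cells (0.162%). In 36 THC probes all 4 IP channels of both cell populations were well above background and none of the 4 T channels was, which is 1.43% of THC probes, against 1.51% of all probes. Their T signal is only bounded, and the bound on IP over T in EV cells ran from at least 1.02-fold to at least 2.08-fold, with 1 of the 36 at 2 or more. In sponge cells the highest bound was at least 1.66-fold. These bounds come from values with an added offset of 50, which draws dim signals together. Signals of the 36 probes in IP were low to moderate, from 5.09 to 9.62 on the log2 scale with a median of 6.16 in EV IP.

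Well above background in each T channel and in no IP channel were 2 THC probes (0.0796%, where 0.0561% of all probes met this), and they are named here after their values were seen. A_24_P921174 (THC2599169) gave log2 signals of 6.63 and 7.16 in EV T, 3.26 and 4.72 in EV IP, 6.83 and 8.23 in sponge T and 3.83 and 4.84 in sponge IP, each pair in the order Cy3 and Cy5. A_32_P164325 (THC2586456) gave 5.78 and 5.82 in EV T, 4.09 and 4.86 in EV IP, 5.70 and 7.08 in sponge T and 3.91 and 4.14 in sponge IP. Every T value of both probes lay above every IP value of the same probe, with IP not well above background. Neither passed the filter on the dyes described next. The bound on T over IP in EV cells was at least 1.14-fold for the first and at least 1.02-fold for the second.

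THC probes were also dimmer, though the values before any filter include the probes never detected. Before any filter the median log2 signal of THC probes was 4.48 in EV T, 4.48 in EV IP, 4.35 in sponge T and 4.43 in sponge IP, against 8.35, 8.40, 8.32 and 8.40 for NM_ probes. Of THC probes, 26.4% exceeded the median T signal of all probes, 3.27% (82 probes) exceeded the 90th percentile and 0.478% (12 probes) the 99th, against 60.2%, 12.2% and 1.01% of NM_ probes. A small bright tail was thus present among THC probes, at lower shares than in the NM_ class.

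The filter used for ratios kept fewer THC probes at each step. It asks for a signal well above background in at least 4 of 8 channels, which 1025 THC probes (40.8%) and 72.7% of NM_ probes met, and for Cy3 and Cy5 within 2-fold in every RNA sample. The dye condition removed 230 of these THC probes (22.4%) and 10.6% of these NM_ probes. At low signal both classes lost alike, with 55.0% of THC and 53.6% of NM_ probes removed at a mean log2 signal of 4 to 6, and 24.9% and 23.5% at 6 to 8. From 8 to 14 THC probes were removed more often, with 10.2% against 6.40% at 8 to 10, 8.94% against 2.15% at 10 to 12, and 15.3% against 1.38% at 12 to 14, where 9 of 59 THC probes were lost. In the brightest range, 14 to 20, 0% of 41 THC probes and 0.562% of NM_ probes were removed. The kept set holds 795 THC probes (31.6%) and 65.0% of NM_ probes, and 643 of the kept THC probes were well above background in all 8 channels. Median log2 signals of kept THC probes were 8.43 in EV T, 8.17 in EV IP, 8.50 in sponge T and 8.16 in sponge IP, with T above IP in both cell populations. Kept NM_ probes had medians of 10.12, 10.17, 10.10 and 10.18, where T and IP lay close together and IP was the higher.

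The brightest THC probes in T were 5 probes with log2 signals of about 18 to 19. A_32_P152999 (THC2740013) gave 18.74 and 18.73 in EV T, 18.41 and 18.29 in EV IP, 19.00 and 19.10 in sponge T and 18.62 and 18.38 in sponge IP. A_24_P681218 (THC2544911) gave 18.56 and 19.10 in EV T, 18.71 and 19.08 in EV IP, 18.49 and 18.98 in sponge T and 18.91 and 19.02 in sponge IP. The first was higher in T than in IP in each cell population, while T and IP of the second overlapped. A_32_P43911 (THC2673526) gave 18.61 and 18.85 in EV T, 18.04 and 18.38 in EV IP, 18.72 and 18.97 in sponge T and 18.07 and 18.30 in sponge IP. A_32_P136662 (THC2560098) gave 18.49 and 18.55 in EV T, 17.41 and 17.74 in EV IP, 18.45 and 18.31 in sponge T and 17.40 and 17.61 in sponge IP. A_32_P70341 (THC2722749) gave 18.11 and 17.94 in EV T, 17.41 and 17.37 in EV IP, 18.23 and 18.23 in sponge T and 17.39 and 17.27 in sponge IP. In all 3 of these, every T value lay above every IP value of the same dye. Log2 IP/T of the 5 probes in EV cells ran from -0.94 ± 0.28 for A_32_P136662 to 0.063 ± 0.64 for A_24_P681218, the latter smaller than its spread over orientations.

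The Ago2 fraction of EV cells was compared with total RNA to see which EST consensus transcripts came down with Ago2. Kept THC probes leaned toward T. Their median log2 IP/T was -0.31 ± 0.079 (quartiles -0.94 to 0.45), and 495 of 795 (62.3%) lay below 0. NM_ probes had a median of -0.12 ± 0.038 with 54.2% below 0, and all kept probes a median of -0.16. The medians differed by -0.20 ± 0.12 (THC minus NM_), with -0.14 and -0.31 in the 2 dye orientations, a gap larger than its spread over the orientations. After normexp background correction, loess and Aquantile in place of quantile normalisation the order was the same at a smaller size, with medians of -0.022 for THC, 0.024 for NM_ and 0.0082 for all kept probes. ENST probes had a median of -0.056 and probes named only by their own identifier -0.49, so THC probes were not at the end of the order.

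An IP/T of 2 or more in EV cells was met by 108 THC probes, 13.6% ± 0.356 of those kept, where 17.5% of all kept probes (percent of 22471) met it and 18.3% of NM_ probes did. A T/IP of 2 or more was met by 176 THC probes (22.1% ± 3.82), against 19.0% of all kept probes and 17.9% of NM_ probes. At 4-fold, 35 THC probes (4.40%) were IP-enriched where 5.91% of all kept probes were, and 19 (2.39%) were T-enriched where the background was 1.30%. At 8-fold, 6 THC probes (0.755%) were IP-enriched against 1.70% of all, and 3 (0.377%) T-enriched against 0.191%. With quantile normalisation THC probes were thus under the array's share on the IP side and over it on the T side at each of the 3 ratios. On the T side the excess at 2-fold was smaller than the ± of the THC share, and that at 8-fold rests on 3 probes. Probes named only by their own identifier went further at 2-fold, with 10.5% on the IP side and 29.1% on the T side. Of THC probes past 2-fold in either direction, 38.0% were on the IP side (47.9% of all probes past it), and after normexp, loess and Aquantile 50.6% were (63.1% of all). A T/IP of 2 or more was then met by 3.8% of THC, 4.48% of NM_ and 5.12% of all kept probes. THC probes were thus no longer over the array's share on the T side. Of the 108 IP-enriched THC probes, 23 (21.3%) were not well above background in either EV T channel, so that their ratio is only bounded, against 5.71% of IP-enriched NM_ probes.

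The same comparison in sponge cells gave a median log2 IP/T of -0.40 ± 0.10 for THC probes (quartiles -1.03 to 0.40), with 519 of 795 (65.3%) below 0. NM_ probes had a median of -0.074 ± 0.070, and the difference THC minus NM_ was -0.33 ± 0.17. An IP/T of 2 or more was met by 99 THC probes (12.5% ± 1.69), where 17.5% of all kept probes and 18.4% of NM_ probes met it. A T/IP of 2 or more was met by 206 (25.9% ± 7.74), where 17.8% of all kept probes and 16.1% of NM_ probes met it. At 4-fold, 33 THC probes (4.15%) were IP-enriched with a background of 5.67%, and 18 (2.26%) were T-enriched with a background of 1.31%. At 8-fold the counts were 6 and 5, with backgrounds of 1.58% and 0.343%. After normexp, loess and Aquantile a T/IP of 2 or more was met by 3.8% of THC, 4.04% of NM_ and 4.66% of all kept probes.

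Most THC probes past 2-fold in one cell population were past it in the other. Of the 108 probes IP-enriched in EV cells and the 99 in sponge cells, 89 were shared, which is 82.4% of the former and 89.9% of the latter, where all kept probes shared 90.6% and 90.3%. On the T side 163 were shared, 92.6% of the 176 found with EV and 79.1% of the 206 found with the sponge, where all kept probes shared 80.9% and 86.6%. Across the 795 THC probes, log2 IP/T in EV and sponge cells had a Pearson r of 0.969, and the 2 dye orientations had an r of 0.919 in EV and 0.898 in sponge cells. Probes are not independent replicates, and the spread of levels between probes enters these values.

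The lean of THC probes toward T varied with signal. At a mean log2 signal of 4 to 6, the 72 THC probes had in EV cells a median log2 ratio of 0.13 ± 0.084, against -0.094 in NM_ probes, and this lowest range was the only one of 6 in which THC probes were the higher class. The 2 orientations of these 72 probes had medians of -0.050 and 0.070, where NM_ probes had -0.042 and -0.15. THC probes were thus the higher class only with IP in Cy3. From 6 to 8 the medians were -0.31 for THC (290 probes) and -0.21 for NM_ probes. From 8 to 10 they were -0.38 (230 probes) and -0.12, and from 10 to 12 they were -0.45 (112 probes) and -0.079. In the brightest ranges they were -0.46 (50 probes, 12 to 14) and -0.41 (41 probes, 14 to 20), where NM_ probes stood at -0.13 and 0.047. In sponge cells the THC median was below the NM_ median in each of the 6 ranges, with values from -0.25 (14 to 20) to -0.55 (12 to 14) for THC probes. Keeping only probes well above background in all 8 channels gave THC medians of -0.46 (EV) and -0.55 (sponge), with NM_ probes at -0.16 and -0.12.

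By identifier series, the 503 kept THC probes of A_32 had the lowest median log2 IP/T in EV cells, -0.36, where the 1144 NM_ probes of A_32 stood at 0.049. In A_24 the medians were -0.23 for 227 THC probes and -0.059 for NM_ probes. In A_23 the order turned in the averaged ratio only, with -0.015 ± 0.071 for 65 THC probes and -0.16 for NM_ probes. Each dye orientation of these 65 probes taken by itself had a lower median, -0.20 and -0.30. The NM_ medians of the same orientations were -0.17 and -0.13, so THC probes were the lower class in both. In sponge cells THC probes were lower in all 3 series, at -0.21 (orientations -0.053 and -0.16) against -0.12 in A_23, -0.31 against -0.012 in A_24 and -0.51 against 0.084 in A_32.

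The 8 probes with the highest log2 IP/T over both cell populations show the IP side of this distribution. A_32_P71437 (THC2583762) gave 12.50 and 12.67 in EV T, 16.35 and 16.41 in EV IP, 12.59 and 12.28 in sponge T and 15.86 and 15.92 in sponge IP. A_32_P136450 (THC2656784) gave 9.07 and 9.04 in EV T, 12.14 and 12.00 in EV IP, 9.23 and 8.62 in sponge T and 12.03 and 12.08 in sponge IP. All 4 IP values of each probe lay well above all 4 of its T values. EV and sponge cells were close to each other in IP for A_32_P136450. IP of A_32_P71437 was lower in sponge cells in both dyes, with a log2 difference of -0.49 ± 0.0019. Log2 IP/T of A_32_P71437 was 3.79 ± 0.16 with EV and 3.45 ± 0.18 with the sponge, or 13.9-fold and 11.0-fold. For A_32_P136450 it was 3.02 ± 0.13 and 3.13 ± 0.39, or 8.09-fold and 8.77-fold.

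A_24_P11587 (THC2532162) gave 9.56 and 9.22 in EV T, 12.15 and 11.91 in EV IP, 9.55 and 9.12 in sponge T and 11.93 and 11.70 in sponge IP. A_24_P141804 (THC2657938) gave 7.67 and 8.33 in EV T, 10.66 and 10.78 in EV IP, 8.23 and 8.29 in sponge T and 10.23 and 10.43 in sponge IP. A_32_P55225 (THC2520867) gave 6.67 and 6.45 in EV T, 9.31 and 9.09 in EV IP, 6.60 and 6.79 in sponge T and 9.04 and 8.78 in sponge IP. The IP values of these 3 probes again lay above all of their T values, and log2 IP/T was somewhat lower in sponge than in EV cells for each of them. It was 2.64 ± 0.42 and 2.48 ± 0.47 (EV, then sponge) for A_24_P11587. It was 2.72 ± 0.55 and 2.07 ± 0.18 for A_24_P141804, the widest gap between the cell populations among the 8. For A_32_P55225 it was 2.63 ± 0.31 and 2.21 ± 0.052.

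A further 2 of the 8 belong to the A_23 series. A_23_P155425 (THC2665061) gave 7.66 and 7.56 in EV T, 10.19 and 10.04 in EV IP, 7.53 and 7.57 in sponge T and 9.85 and 9.93 in sponge IP. A_23_P140654 (THC2609891) gave 7.56 and 7.43 in EV T, 10.01 and 9.97 in EV IP, 7.51 and 7.84 in sponge T and 10.03 and 9.99 in sponge IP. In both, all IP values lay above all T values. IP of A_23_P140654 was alike in EV and sponge cells, and IP of A_23_P155425 was lower in sponge cells in both dyes, by a log2 difference of -0.22 ± 0.17. Their log2 IP/T in EV cells was 2.51 ± 0.18 and 2.50 ± 0.12, and in sponge cells 2.34 ± 0.082 and 2.33 ± 0.20. The last of the 8 has a partner probe on the same consensus, THC2651395. A_32_P115446 gave 10.36 and 10.47 in EV T, 12.99 and 12.88 in EV IP, 10.74 and 10.39 in sponge T and 12.81 and 12.75 in sponge IP. A_32_P115451 gave 10.82 and 10.76 in EV T, 13.36 and 13.04 in EV IP, 11.00 and 10.84 in sponge T and 13.23 and 13.06 in sponge IP. The 2 probes, read from different spots, placed this transcript alike, with log2 IP/T of 2.52 ± 0.00095 and 2.41 ± 0.27 with EV, then 2.21 ± 0.29 and 2.23 ± 0.23 in sponge cells. In total, 15 THC probes well above background in all 8 channels had a log2 IP/T of at least 2 in both cell populations, 2.33% of the 643 such probes, where 4.28% of all such kept probes did. After normexp, loess and Aquantile the ratios of 4 of the 8 highest probes were lower by over 1 on the log2 scale in both cell populations. That of A_32_P136450 was lower by over 1 in sponge cells only, at 2.15 in EV and 2.01 in sponge cells. For the 4 probes, log2 IP/T in EV and sponge cells was then 0.87 and 0.52 for A_32_P55225, 1.16 and 0.77 for A_23_P155425, 1.13 and 0.73 for A_23_P140654, and 1.41 and 0.80 for A_24_P141804, while the brightest in IP, A_32_P71437, stayed at 3.69 and 3.40.

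The 5 probes with the lowest log2 IP/T are all of the A_32 series. A_32_P85711 (THC2620175) gave 15.64 and 15.64 in EV T, 12.13 and 12.41 in EV IP, 15.22 and 15.95 in sponge T and 11.92 and 11.97 in sponge IP. A_32_P15887 (THC2657348) gave 15.06 and 15.25 in EV T, 11.96 and 11.94 in EV IP, 14.78 and 15.64 in sponge T and 11.85 and 11.75 in sponge IP. A_32_P65793 (THC2694215) gave 15.21 and 15.25 in EV T, 12.32 and 12.76 in EV IP, 14.77 and 15.60 in sponge T and 12.18 and 12.14 in sponge IP. All 3 were bright in T and far dimmer in IP, without overlap of the fractions. T exceeded IP by 10.4-fold in EV and 12.5-fold in sponge cells for A_32_P85711 (log2 IP/T -3.37 ± 0.20 and -3.64 ± 0.55). For A_32_P15887 log2 IP/T was -3.20 ± 0.12 and -3.42 ± 0.54, and for A_32_P65793 it was -2.69 ± 0.34 and -3.02 ± 0.55. In each of the 3, sponge T with Cy5 was higher and sponge T with Cy3 lower than both EV T values, so the dyes disagreed on a difference in T.

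A_32_P78575 (THC2522884) gave 11.84 and 12.15 in EV T, 8.93 and 8.79 in EV IP, 11.84 and 12.56 in sponge T and 9.27 and 9.11 in sponge IP. A_32_P196247 (THC2674530) gave 13.42 and 13.76 in EV T, 10.64 and 10.93 in EV IP, 13.46 and 14.08 in sponge T and 10.43 and 10.69 in sponge IP. These were less bright and about as far apart between the fractions. Log2 IP/T was -3.14 ± 0.13 and -3.01 ± 0.39 for A_32_P78575 and -2.80 ± 0.45 and -3.22 ± 0.62 for A_32_P196247. In all, 14 THC probes well above background in all 8 channels had a log2 IP/T of -2 or less in both cell populations, 2.18% of the 643, where 1.09% of all such kept probes did. After normexp, loess and Aquantile the values of these 5 probes in EV cells lay between -2.04 (A_32_P78575) and -3.14 (A_32_P85711).

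Where several probes read one THC, they tended to give the same ratio at different signals. Of the 2468 THC names, 41 have more than 1 probe (86 probes), and for 15 of these names all probes were well above background in at least 4 channels, for 22 none was, and for 4 only some were. Both probes were kept for 11 names, and log2 IP/T had the same sign in both probes for 9 of them with EV and 10 with the sponge. The probes of a name differed in log2 IP/T by a median of 0.15 in EV cells (largest 0.61) and 0.15 in sponge cells (largest 0.35), while their signals differed by a median of 0.99 and by up to 5.14. THC2500237 held that widest signal gap, with a mean log2 signal of 13.50 for A_32_P172917 and 8.36 for A_32_P172920, and log2 IP/T in EV cells of -0.95 and -0.88. THC2527406 was IP-enriched by both of its probes, A_24_P779605 and A_32_P111852, at 1.24 and 1.32 in EV cells. THC2559181 was T-enriched by both, A_24_P588235 and A_32_P157135, at -2.13 and -1.86. The signs differed in EV cells for THC2647392 (-0.034 and 0.58) and THC2670565 (0.027 and -0.52).

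To see whether binding of EST consensus transcripts to Ago2 depended on miR-155, IP/T in sponge cells was compared with IP/T in EV cells. The median change of log2 IP/T was -0.071 ± 0.043 in THC probes, with 474 of 795 (59.6%) below 0, and 0.025 in NM_ probes. The difference THC minus NM_ was -0.096 ± 0.067. ENST probes had a median of -0.028 and probes named only by their own identifier 0.061. The SD of the change across THC probes was 0.28, against an SD of 0.23 for the halved difference between orientations. The spread of the change between probes was thus little wider than the spread from labelling and hybridisation. The 2 orientations of the change had a Pearson r of 0.197 across THC probes.

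The study's criterion for a miR-155 target, an IP/T of 2 or more in EV cells that was lower by 2-fold or more in sponge cells, was met by 1 THC probe, 0.926% of the 108 enriched in EV cells, where 0.535% of all enriched probes met it. With EV and sponge exchanged, 1 THC probe also met it (1.01% of 99, against 0.609%). Both are named after their values were seen. A_24_P453970 (THC2677783) met the criterion with 4.12 and 3.87 in EV T, 5.49 and 5.31 in EV IP, 4.73 and 4.97 in sponge T and 5.22 and 4.96 in sponge IP. A_24_P213296 (THC2687779) met the exchanged form with 4.65 and 5.09 in EV T, 6.10 and 6.05 in EV IP, 4.12 and 3.55 in sponge T and 6.22 and 6.11 in sponge IP. Neither was well above background in any T channel, so that their T signal, and with it the change in IP/T, is only bounded, and their IP values lay close together in EV and sponge cells. No THC probe that was well above background in all 8 channels met either criterion.

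Among THC probes well above background in all 8 channels and with the same sign in both orientations, the 3 highest changes of log2 IP/T were all of the A_32 series. A_32_P60709 (THC2663783) gave 7.00 and 7.28 in EV T, 6.15 and 7.09 in EV IP, 6.35 and 6.98 in sponge T and 6.63 and 7.02 in sponge IP. A_32_P24359 (THC2680571) gave 7.46 and 7.27 in EV T, 7.64 and 7.32 in EV IP, 7.14 and 6.51 in sponge T and 7.73 and 7.46 in sponge IP. A_32_P8396 (THC2739386) gave 7.58 and 7.39 in EV T, 7.99 and 7.95 in EV IP, 7.41 and 6.51 in sponge T and 8.14 and 8.05 in sponge IP. The changes were 0.68 ± 0.15, 0.66 ± 0.28 and 0.65 ± 0.54, and in the last 2 the lowest of the 4 T values was sponge T with Cy5. With Cy3 labels only they were 1.13, 0.41 and 0.33, and with Cy5 labels only 0.23, 0.91 and 0.97. After normexp, loess and Aquantile they were 0.18, -0.016 and 0.079. The partner of A_32_P60709 on THC2663783, A_32_P60707, was well above background in 0 of 8 channels.

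The 3 lowest changes were found in A_32_P221569 (THC2590490), A_32_P8732 (THC2655140) and A_24_P727215 (THC2536560). A_32_P221569 gave 6.05 and 6.25 in EV T, 6.69 and 6.65 in EV IP, 6.48 and 7.25 in sponge T and 6.62 and 6.66 in sponge IP. A_32_P8732 gave 6.78 and 6.25 in EV T, 5.36 and 6.02 in EV IP, 6.41 and 7.34 in sponge T and 5.24 and 5.43 in sponge IP. A_24_P727215 gave 7.20 and 6.85 in EV T, 5.85 and 6.29 in EV IP, 6.61 and 7.24 in sponge T and 5.24 and 5.30 in sponge IP. Their changes were -0.74 ± 0.47, -0.72 ± 0.69 and -0.69 ± 0.42. In all 3 the highest T value was sponge T with Cy5, the channel with the lowest detection. With Cy3 labels only the changes were -0.49, 0.25 and -0.014, and with Cy5 labels only -0.98, -1.69 and -1.37. After normexp, loess and Aquantile they were -0.018, -0.072 and -0.10. All 6 changes were under 2-fold on average, and their SDs over orientations ran from 0.15 to 0.69.

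Total RNA of sponge cells was compared with that of EV cells for a difference in the level of THC transcripts. The median log2 difference was 0.049 ± 0.045, with 0.010 in Cy3 and 0.074 in Cy5, and 451 of 795 probes (56.7%) were above 0. NM_ probes had a median of -0.024, and THC minus NM_ was 0.073 ± 0.080, a difference smaller than its spread over the dyes. In array data less RNA of one kind per cell and fewer cells that hold it cannot be told apart. The Cy3 value, which leaves out the poorly detected Cy5 labelling of sponge T, was the smaller of the 2. Across THC probes the differences in Cy3 and in Cy5 had a Pearson r of 0.440.

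Counting T differences of at least 2-fold whose direction held with either dye gave 2 THC probes higher in sponge cells (0.252%, with a background of 0.151%) and 6 lower (0.755%, background 0.258%). Both of the higher ones were dim, A_32_P123852 (THC2708103) and A_32_P3545 (THC2559752), named after their values were seen. A_32_P123852 gave 4.77 and 4.97 in EV T, 5.66 and 6.12 in EV IP, 6.11 and 5.87 in sponge T and 6.05 and 6.19 in sponge IP. A_32_P3545 gave 4.78 and 3.99 in EV T, 5.57 and 5.04 in EV IP, 5.58 and 6.12 in sponge T and 6.26 and 5.91 in sponge IP. In neither was EV T well above background, and sponge T was so in 1 of 2 channels, which leaves a bound of at least 1.04-fold and at least 1.03-fold. Of the 6 lower ones, 1 was detected in each of the 4 T channels, and in 4 no T channel was. With scaling to the 75th percentile the counts were 3 higher and 4 lower (74 and 36 of all kept probes, where quantile normalisation gave 34 and 58), and after normexp, loess and Aquantile no THC probe passed.

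That 1 probe was A_24_P671875 (THC2588113). It gave 7.56 and 7.87 in EV T, 9.03 and 9.16 in EV IP, 6.52 and 6.77 in sponge T and 8.31 and 8.35 in sponge IP. Sponge values lay below EV values in both fractions and both dyes, without overlap. The log2 difference was -1.08 ± 0.041 in T and -0.77 ± 0.065 in IP, while log2 IP/T was 1.38 ± 0.31 in EV and 1.69 ± 0.21 in sponge cells. The transcript was thus IP-enriched in both cell populations, with a lower level in sponge cells. After normexp, loess and Aquantile its difference in T was -0.24.

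The remaining one of the 6, A_32_P98356 (THC2636500), stood apart and is named after its values were seen. It gave 5.68 and 6.25 in EV T, 5.63 and 5.86 in EV IP, 2.94 and 3.10 in sponge T and 2.94 and 3.08 in sponge IP. All 4 EV channels were well above background and none of the 4 sponge channels was, and no sponge value came near an EV value. Because the sponge side is only bounded, EV exceeded sponge by at least 1.13-fold in T and at least 1.10-fold in IP.

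Among THC probes detected in each of the 4 T channels, 3 had the largest positive differences in T. A_24_P105913 (THC2606573) gave 8.64 and 8.48 in EV T, 8.70 and 8.42 in EV IP, 9.56 and 9.39 in sponge T and 9.24 and 9.02 in sponge IP. A_32_P71476 (THC2668267) gave 6.86 and 6.28 in EV T, 5.09 and 5.85 in EV IP, 6.92 and 7.86 in sponge T and 5.79 and 6.02 in sponge IP. A_32_P97513 (THC2679050) gave 6.08 and 6.51 in EV T, 5.76 and 5.56 in EV IP, 7.19 and 6.98 in sponge T and 5.65 and 6.60 in sponge IP. The first was higher in sponge T in both dyes by almost the same amount, 0.92 ± 0.0027, and in IP by 0.57 ± 0.039. The other two were uneven between the dyes, at 0.81 ± 1.07 and 0.79 ± 0.46 in T. The next lowest differences in T were those of A_24_P54083 (THC2606799) and A_24_P396881 (THC2544148). A_24_P54083 gave 8.00 and 7.92 in EV T, 6.89 and 7.15 in EV IP, 7.37 and 7.07 in sponge T and 6.26 and 6.65 in sponge IP. A_24_P396881 gave 8.56 and 8.28 in EV T, 8.42 and 8.35 in EV IP, 8.18 and 7.24 in sponge T and 7.83 and 7.63 in sponge IP. Both were lower in sponge cells in T and in IP, by log2 differences of -0.74 ± 0.15 and -0.71 ± 0.46 in T and -0.56 ± 0.093 and -0.66 ± 0.086 in IP. After normexp, loess and Aquantile the positive differences in T were 0.40, 0.12 and 0.11, in the order given. Those of A_24_P54083 and A_24_P396881 were then -0.18 and -0.20.

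The Ago2 fractions of the 2 cell populations differed little in THC probes. The median log2 difference, sponge minus EV in IP, was -0.031 ± 0.028, with 429 of 795 (54.0%) below 0, and 0.0055 in NM_ probes. THC minus NM_ was -0.036 ± 0.034. Scaled to each channel's 75th percentile in place of quantile normalisation, the THC median turned to 0.017, and that of NM_ probes was 0.027. Counted as for T, 0 THC probes were at least 2-fold higher in sponge IP (background 0.0846%) and 2 were lower (0.252%, background 0.0668%). With scaling to the 75th percentile there was 1 of each, and all kept probes then numbered 37 higher and 6 lower. These 2 were A_32_P98356, given above, and A_32_P205913 (THC2677037), named after its values were seen, with 6.36 and 6.44 in EV T, 5.80 and 6.58 in EV IP, 6.73 and 6.04 in sponge T and 5.10 and 5.16 in sponge IP. In the latter sponge IP was well above background in 1 of 2 channels, so neither was so in all 4 IP channels. The differences in IP had a Pearson r of 0.630 between Cy3 and Cy5 across THC probes.

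A_32_P213306 (THC2579654) showed the largest higher value in IP of sponge cells among probes well above background in all 4 IP channels. It gave 9.68 and 10.02 in EV T, 8.20 and 7.95 in EV IP, 10.30 and 10.83 in sponge T and 9.01 and 8.95 in sponge IP. Sponge exceeded EV without overlap in both fractions, by 0.90 ± 0.13 in IP and 0.71 ± 0.14 in T on the log2 scale. A_32_P172215 (THC2541678) gave 7.56 and 7.53 in EV T, 6.69 and 6.51 in EV IP, 7.92 and 8.46 in sponge T and 7.95 and 6.97 in sponge IP. A_32_P11969 (THC2694800) gave 6.21 and 6.58 in EV T, 5.43 and 5.73 in EV IP, 6.68 and 6.99 in sponge T and 6.30 and 6.34 in sponge IP. These were also higher in both fractions of sponge cells, by 0.86 ± 0.57 and 0.75 ± 0.18 in IP. On the lower side, A_32_P221631 (THC2635591) gave 6.80 and 7.43 in EV T, 7.67 and 7.79 in EV IP, 6.84 and 6.34 in sponge T and 6.85 and 6.95 in sponge IP. A_32_P171793 (THC2676635) gave 6.05 and 6.76 in EV T, 6.44 and 6.76 in EV IP, 6.53 and 6.47 in sponge T and 5.78 and 5.83 in sponge IP. Both were lower in sponge IP in each dye, with a log2 difference of -0.83 ± 0.014 and -0.80 ± 0.19, and uneven between dyes in T. The third was A_24_P727215, given above, with -0.80 ± 0.27. After normexp, loess and Aquantile the higher differences in IP were 0.44, 0.26 and 0.044, in the order given. The lower ones were then -0.15, -0.045 and -0.10.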

How the data were processed

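Spot intensity values in the 8 scanner files were made by the authors with Agilent Feature Extraction, version 10.7.3.1 per the file headers and 10.5.1.1 per the labels, which subtracts background and corrects for the dye. They are 4 distinct arrays, each deposited under both of its samples, and each sample's processed signal was read in its own dye, with the well-above-background flags as deposited. The deposited series table holds the authors' quantile-normalised log2 values for 22282 probes, 780 of them THC probes, and served as an alternative.

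Control spots and spots marked as outliers were dropped, spots of a probe were averaged and log2 signals were quantile normalised over 8 channels (40940 probes with a value in each, 60 without). Following the study's methods, a probe was kept when at least 4 channels were well above background and its Cy3 and Cy5 values were within 2-fold in each RNA sample, which left 22471, and the dyes were then averaged. IP/T is the ratio of IP to T of 1 cell population. Bounds and 1 alternative used limma 3.58.1 (R 4.3.3), with normexp at an offset of 50 on median spot signals, loess within arrays and Aquantile between them. Other steps used Python 3.11.15, numpy 2.4.6 and pandas 2.3.3. The steps were tested on simulated data.

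With 1 RNA sample per group no test across samples was made. The precision is limited by the number of arrays. Named probes were the 8 highest and 5 lowest in log2 IP/T, the 5 brightest in T, the 3 largest differences in each direction in T and in IP, and the 3 highest and 3 lowest changes of IP/T, among kept THC probes well above background in all channels compared and with 1 sign in both dyes. The THC class, lists and alternatives were chosen with earlier results of these data known, and the split by probe series after seeing the present values. Description classes and probe sequences were not analysed here.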

Additional observations from a re-analysis of the deposited data

Results flagged for a closer look

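For 4 named probes, T moved one way from EV to sponge cells and IP the other, in both dyes; the difference between the fractions was not tested. In A_32_P196247 the log2 difference was 0.19 in T and -0.23 in IP, and in A_32_P70341 it was 0.20 in T and -0.055 in IP. In A_32_P24359 it was -0.54 in T and 0.12 in IP, and in A_32_P8396 it was -0.53 in T and 0.12 in IP. These last probes were named for a high change of IP/T, which is the difference in IP minus that in T. Opposite movement is thus partly what selected them, and after normexp, loess and Aquantile their changes were -0.016 and 0.079. The median of kept THC probes likewise lay on opposite sides of 0, at 0.049 in T and -0.031 in IP, which was not tested either.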

How the results depend on the processing

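No paired analysis was possible because each group holds 1 RNA sample and its replicate numbers stand for the Cy3 and Cy5 labels. Of 747 alternatives computed for 71 values of named probes, 663 stayed within the spread over dyes, 80 moved further and 4 changed sign, and the cause was not tested. Many of the 663 could not have moved. Settings that change only the filter leave the value of a kept probe as it was. A single dye for a difference in T or IP, or a single orientation for IP/T, always lies within the SD of the mean. IP/T and its change with labels of only 1 dye are not bound in this way. The count of 663 is therefore no measure of robustness. Those that changed sign were A_24_P681218 in T (0.035 after normexp, loess and Aquantile, and 0.11 scaled to the 75th percentile), A_32_P24359 (change of log2 IP/T -0.016 after normexp) and A_32_P8732 (change 0.25 with Cy3 labels only). Differences of named probes between cell populations in T or IP were up to 0.44 in size after normexp.

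After normexp, loess and Aquantile, which moved the median log2 IP/T of all kept probes in EV cells from -0.16 to 0.0082, the THC median was -0.022 in EV and -0.038 in sponge cells. THC minus NM_ was then -0.047 and -0.067, -0.0099 for the change of IP/T and -0.00024 for IP, the shares of THC probes with an IP/T of 2 or more were 3.90% and 2.20%, and 0 THC probes differed 2-fold between cell populations in T and 0 in IP. With all 8 channels well above background, the THC median IP/T was -0.46 and -0.55, the shares were 9.49% and 8.55%, the median signal was 8.92, and 1 probe differed 2-fold in T and 0 in IP. With 1 channel sufficing, the signal was 8.06, the EV share 14.3% and the counts 15 and 4. Without the dye filter the signal was 7.75, the EV share 14.05% and the counts 24 and 6, and with dyes within 1.5-fold they were 8.84, 14.1%, 5 and 1. Scaled to the 75th percentile, the signal was 8.26, the EV share 13.98% and the THC difference in IP 0.017. The authors' values gave a signal of 8.32. With Cy5 or Cy3 labels alone, 8 to 23 THC probes differed 2-fold in T and 6 to 6 in IP. The EV share was 14.5% on arrays with IP in Cy3 and 13.96% with IP in Cy5, and the sponge share with IP in Cy3 was 14.7%. The positive and significant flag called 61.6%.

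THC minus NM_ in EV cells was 0.22 at a mean log2 signal of 4 to 6 (positive only with IP in Cy3), -0.37 at 10 to 12, -0.33 at 12 to 14 and -0.46 at 14 to 20. It was 0.14 within A_23 and -0.41 within A_32, and in sponge cells -0.093 and -0.60. The positive value of A_23 in EV cells was found in neither dye orientation alone. For IP it was -0.18 at 4 to 6, 0.014 at 6 to 8, -0.00092 within A_23 and -0.072 within A_24, and for T it was -0.024 at 4 to 6. Causes of these differences were not tested. Signal over background limits 23 of the 108 IP-enriched THC probes to a bound.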
